A study of Mus musculus with 2 samples.

Results

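The cells described here are complement C1q-expressing macrophages low in Arg1 from mouse gliomas, 634 of 15723 sorted immune cells kept over 2 single-cell libraries. They were chosen by a gate on measured UMIs (unique molecular identifiers, each standing for 1 captured RNA molecule). A cell had to hold at least 3 UMIs of C1qa, C1qb, C1qc and Ms4a7 together. It could hold at most 2 UMIs of Arg1 and Mrc1 together, or more if these made up fewer than 10 per 10000 of its UMIs. It could hold at most 1 UMI of the microglial genes Sparc, P2ry12, Tmem119 and Gpr34, at most 1 of Ly6c2, at most 4 of Fn1, F10, Ly6i and Il1b, none of Flt3 and at most 1 of Cd3d, Cd3e and Cd3g. These 19 genes selected the members, so their levels below are descriptions.

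The libraries came from glioma tissue treated with PBS (phosphate-buffered saline) or with EM, and the title of the EM library gives 72 h. The meaning of EM is not given in the labels, which name no time for PBS, no strain, age, sex or glioma line, and do not say how many animals were pooled. The series title concerns adoptively transferred macrophages in glioblastoma. In both libraries living CD45.2+CD45.1- cells, called endogenous in the labels, were sorted by flow cytometry and captured with the BD Rhapsody system, so cells carrying CD45.1 were left out of both. With 1 library per treatment no difference has a replicate check. The treatment cannot be told apart from the animal, the dissociation, the sort or the library, and every interval below covers counting error only.

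C1q is the recognition subunit of the classical complement pathway and is assembled from the chains encoded by C1qa, C1qb and C1qc. Unlike most complement proteins, which the liver makes, C1q comes mainly from tissue macrophages and, in the brain, from microglia. It binds immune complexes, dying cells and synapses and marks them for uptake. In gliomas, resident microglia lie beside macrophages that derive from blood monocytes, and Ms4a7 and Tgfbi are commonly higher in the latter. Arg1 and Mrc1, which encode arginase 1 and the mannose receptor, mark an alternatively activated state, so the gate takes C1q cells with little of both.

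The gate held 134 of 7756 PBS cells (1.73%, exact Clopper-Pearson 95% interval 1.45 to 2.04) and 500 of 7967 EM cells (6.28%, 5.75 to 6.83), a ratio of 3.63 (3 to 4.43). This ratio depended on sequencing depth and turned round at equal depth. When every cell was thinned to 500 UMIs before the gate was applied, 844 PBS cells (10.9%) and 579 EM cells (7.27%) passed, a ratio of 0.668 (0.6 to 0.743). Among cells of at least 1000 UMIs the ratio was 1.7. The limits of the gate are raw UMIs, and PBS cells were deeper, with a median of 4303 UMIs over all cells kept against 2016 in EM. No order of abundance is read from these shares.

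The conditions of the gate removed different cells in each library. At least 3 UMIs of the C1q genes and Ms4a7 were found in 1673 PBS cells and 853 EM cells. The Arg1 and Mrc1 limit then removed 934 PBS cells and 27 EM cells, and the limit on Fn1, F10, Ly6i and Il1b removed 242 and 4. The microglial limit removed 237 and 217. As a share of the cells with 3 C1q or Ms4a7 UMIs, the gate kept 8.01% in PBS (6.75 to 9.42) and 58.6% in EM (55.2 to 61.9). Just inside the C1q limit, at 3 UMIs, lay 20 PBS and 13 EM cells, and just outside, at 2 UMIs with every other condition met, 22 and 12. Just inside the microglial limit, at 1 UMI, lay 26 PBS and 108 EM cells, and just outside, at 2 UMIs, 15 and 59. In EM the cells just inside that limit held 1096 CPM (UMIs of the gene per 1000000 UMIs) of Tgfbi, against 490 CPM just outside.

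The gate cells held a total of 496451 UMIs in PBS and 488523 in EM, so the summed levels rest on like totals. They do not rest on like cells: the totals came from 134 PBS and 500 EM cells, and deep cells weigh more in the PBS sums. The median cell held 1886 UMIs in PBS (500 to 17151) and 800 in EM (500 to 3726). Their median mitochondrial share was 7.28% in PBS and 4.19% in EM. The libraries shared 66 cell barcodes, none of them among gate cells of both. C1q and Ms4a7 UMIs made up a median of 68 per 10000 UMIs of a PBS cell (3.49 to 227) and 155 of an EM cell (12.3 to 598). The ranges overlap, and the upper quartile of PBS, 99.3, lay just under the lower quartile of EM, 101. Pooled T cells, which should lack these genes, held 2.2 per 10000 in PBS and 0.939 in EM. The lowest PBS gate cell, at 3.49 per 10000 with 8603 UMIs, lay near the PBS T cell level. At least 50 per 10000 were held by 88 of 134 PBS gate cells and 474 of 500 EM gate cells, so weak C1q levels were more common in PBS.

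**Figure D1:**
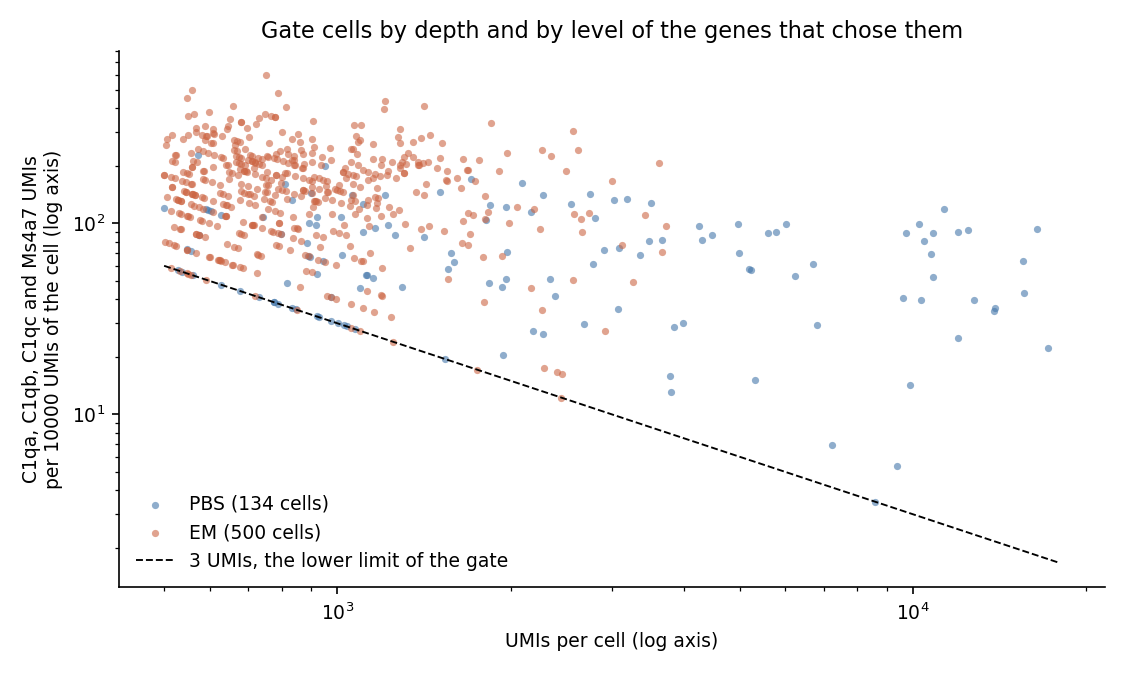
Each point is 1 gate cell, with its total UMIs on the x axis and its C1qa, C1qb, C1qc and Ms4a7 UMIs per 10000 on the y axis, both on log axes, and PBS in blue and EM in orange. The dashed line is the limit of 3 UMIs; PBS cells spread up to 17151 UMIs and lie lower (median 68 per 10000) than EM cells (median 155), none of which exceeds 3726 UMIs.

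The levels of the 5 markers of the label follow. The gate selected on all of them but Tgfbi, so only Tgfbi can check the label, and not its low Arg1 part. C1qa stood at 1277 CPM in PBS (634 UMIs) and 2170 CPM in EM (1060 UMIs), C1qb at 2274 and 6536 CPM, and C1qc at 2745 and 6311 CPM. The 3 genes are neighbours on chromosome 4 of GRCm38, C1qb at chr4:136880129-136886187, C1qc at chr4:136889804-136893065 and C1qa at chr4:136895917-136898803. Ms4a7, a membrane protein of the MS4A family at chr19:11321039-11336146, stood at 92.7 and 794 CPM. Tgfbi, a secreted matrix protein induced by TGF-beta and the only one of the 5 that the gate did not use, stood at 429 CPM in PBS (213 UMIs) and 1865 CPM in EM (911 UMIs), a log2 ratio of 2.12 (1.90 to 2.34). It lies at chr13:56609523-56639562. C1q cells over the Arg1 and Mrc1 limit only held more Tgfbi, 602 CPM in PBS and 2772 CPM in EM. Those over the microglial limit only held less, 106 and 212 CPM. Tgfbi thus does not set the gate cells apart from C1q cells with more Arg1 and Mrc1.

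At 500 UMIs a cell, C1qb was seen in 65.7% of PBS cells (57 to 73.7) and 91% of EM cells (88.1 to 93.4), against 1.61% and 1.31% of T cells. Tgfbi was seen in 20.1% of PBS cells and 49.8% of EM cells, against 0.442% and 0.491% of T cells. Without thinning the Tgfbi shares were 54.5% and 57.4%. T cells were deeper than the gate cells (median 4635 UMIs in PBS and 2326 in EM), and the Tgfbi shares in gate cells lay far above theirs. The C1qb shares describe the gate, which selected on this gene. All 12 general macrophage markers were detected. In EM 5 of them were at least 2-fold higher and 3 lower, against 8.54% and 19% of all genes compared. Mertk (log2 ratio -1.49) and Cd14 (-1.91) were among the lower ones. Csf1r, the receptor for the growth factor that macrophages need, stood at 735 and 1007 CPM. Lyz2, lysozyme, stood at 4560 and 5402 CPM.

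All other PBS cells held 897 CPM of C1qb and all other EM cells 180 CPM. These levels describe the gate, which selected on this gene, and most of the 1673 PBS cells with at least 3 C1q or Ms4a7 UMIs are among the other cells. Beyond the gate genes, and against all other cells kept, the EM gate cells led with Ccl8, a monocyte chemoattractant, and the matrix metalloproteinase Mmp13. H2-M2, a nonclassical MHC class I gene, was also among the first. In PBS they led with Mucl1, a mucin-like secreted protein, Ccl17, a ligand of CCR4, and Mgl2, a galactose-binding lectin.

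A part of the EM cells went against the label. Of 11 microglial markers that the gate did not use, 7 had at least 20 UMIs in both libraries together. All 7 were higher in EM, 6 of them at least 2-fold, where 8.54% of all genes compared were that much higher. Cx3cr1, the fractalkine receptor, stood at 133 CPM in PBS against 694 CPM in EM. Olfml3, an olfactomedin-like secreted protein, stood at 58.4 and 526 CPM. Fcrls, an Fc receptor-like scavenger receptor, was at 0 UMIs in PBS and 61 UMIs in EM. At 500 UMIs, 154 of 500 EM cells (30.8%) held a microglial UMI and none of Tgfbi or Ms4a7, 128 (25.6%) the reverse, and 173 (34.6%) held both kinds. In PBS 67 of 134 cells (50%) held neither.

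Clustering within each library gave 5 groups apiece, with no matching between libraries. EM group 1 (163 cells, 32.6%) is microglia-like. It held 375 CPM of Fcrls and 177 CPM of Sall1, a transcription factor of microglial identity, but only 156 CPM of Tgfbi and 3358 CPM of Cd74, the invariant chain of MHC class II. The summed level of the 15 microglial markers was 10705 CPM there and 1586 to 3025 CPM in the other 4 EM groups. In the 5 PBS groups it lay between 227 and 2048 CPM. This group was not poor in C1q: its median of C1q and Ms4a7 UMIs, 186 per 10000, was the highest of all groups. Since it has microglial genes among its leading genes, the cells are called gate cells from here on. Counts of list members that changed by 1.5 times or more without it are given both ways. The log2 ratios of Cx3cr1 and Olfml3 were 2.38 and 3.17 with this group and 1.71 and 2.49 without it.

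The remaining EM groups stay unnamed. Groups 2 (120 cells) and 3 (103 cells) were alike in Tgfbi (3067 and 3365 CPM), Ms4a7 (1339 and 1442 CPM) and Cd74 (20783 and 20151 CPM). Group 2 led with C-type lectin genes (Clec4a2, Mgl2, Clec4n). Group 3 led with Pla2g7, a lipoprotein-associated phospholipase, Acp5, an acid phosphatase, Vcam1, an adhesion molecule, and Mmp14, a membrane-bound metalloproteinase. Group 4 (90 cells) held cell division genes, with Top2a, a topoisomerase of dividing cells, at 1120 CPM against 102 to 290 CPM in groups 1 to 3. Group 5 (24 cells) held 1589 CPM of Gzma, a granzyme of killer lymphocytes, 530 CPM of Nkg7 and 2078 CPM of Egr1. Summed NK cell markers were 2140 CPM in it against 35.4 to 60.1 CPM in the other EM groups, and summed T cell markers 1121 CPM against 122 to 305 CPM. Its cells were deeper (median 2218 UMIs) and poorer in C1q and Ms4a7 (median 47.6 per 10000).

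The PBS groups also stay unnamed. Group 1 (37 cells) held most C1q and Ms4a7, 98.8 per 10000, and led with Slc40a1, the iron exporter, Hmox1, heme oxygenase 1, and Selenop, a selenium transport protein. Group 2 (37 cells) held 35.8 per 10000 and led with Lhfpl2 and Tsc22d2. It also held 1667 CPM of the costimulatory gene Cd86, against 142 to 297 CPM in the others. Group 3 (26 cells of a median of 964 UMIs) led with Apod, a lipid-binding lipocalin, and with Il1b and Egr1. Group 4 (26 cells of a median of 5628 UMIs) held all 52 UMIs of Nos2, the inducible nitric oxide synthase, and 2368 CPM of Cxcl9. Group 5 (8 cells) led with Lpl, Crip1 and Plet1. Groups 2 and 4 held 163729 and 185402 of the 496451 UMIs of the PBS gate cells, so the summed PBS levels rest largely on them.

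**Figure D2:**
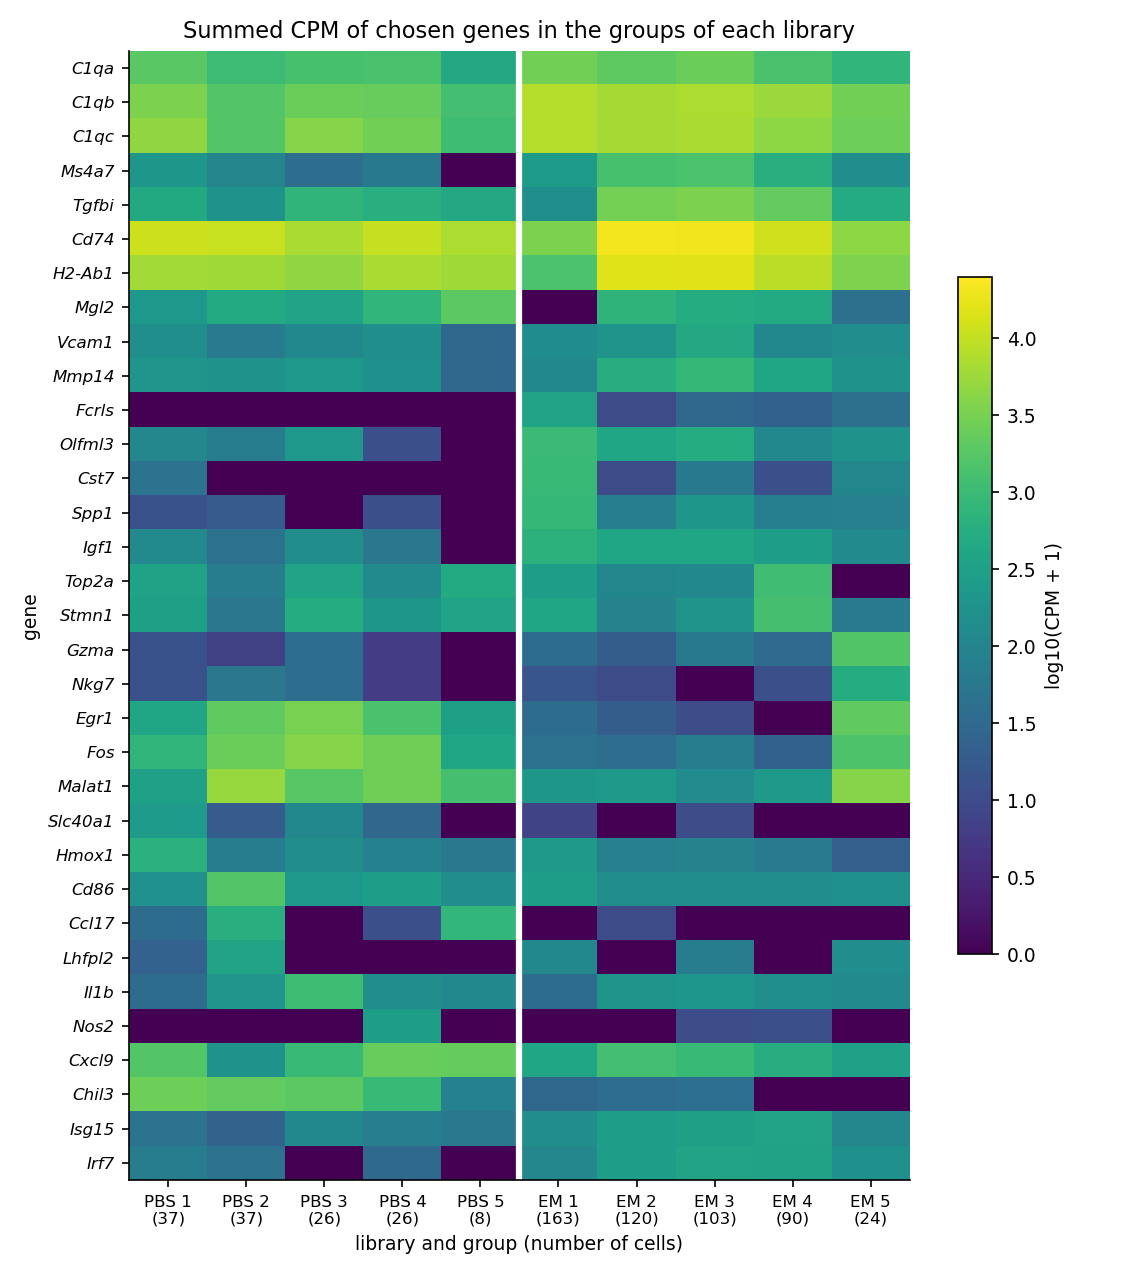
Colour gives log10(CPM + 1) of the summed UMIs of each group (columns, with the number of cells) for chosen genes (rows), with the PBS groups to the left of the white line and the EM groups to the right. EM group 1 is high in Fcrls, Cst7 and Spp1 and low in Tgfbi, EM groups 2 and 3 are high in Tgfbi and Cd74, and EM group 5 alone among EM groups is high in Gzma, Egr1 and Malat1.

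Markers of other classes were detected at lower summed levels than the 12 general macrophage markers (11481 CPM in PBS against 17172 CPM in EM), and most of these sums differed between the libraries. Summed T cell markers were 123 CPM in PBS against 301 CPM in EM. NK cell markers summed to 24.2 and 260 CPM, of which Gzma made up 8.06 and 192 CPM. Plasmacytoid dendritic cell markers summed to 205 and 502 CPM, mostly Bst2, which is also an interferon-induced gene, and Tcf4. Plasma cell markers summed to 276 and 125 CPM, of which Xbp1, a transcription factor of secretory cells, made up 258 and 117 CPM. Border-associated macrophage markers summed to 371 and 293 CPM. Clec4n made up 191 and 164 CPM of these and Stab1 70.5 and 92.1 CPM, while Lyve1 and Cd209f were at 0 in both and F13a1 had 25 UMIs in PBS and none in EM.

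Neutrophil markers summed to 167 CPM in PBS and 67.6 CPM in EM, with 745 CPM in PBS group 3. Csf3r held 31 and 27 UMIs of these and Retnlg 33 and none, while S100a9 and Ly6g were at 0 in both libraries. Dendritic cell markers summed to 84.6 and 55.3 CPM, with Clec9a at 21 and 4 UMIs and Fscn1 at 4 and 17, and the gate itself had set Flt3 to 0. Non-immune markers summed to 139 and 40.9 CPM. B cell markers summed to 18.4 CPM in EM, basophil and mast cell markers to 36.8 CPM in EM, and both to 0 in PBS. All 6 basophil and mast cell markers were detected in EM group 5, at a sum of 306 CPM. Summed monocyte markers were 1984 CPM in PBS against 489 CPM in EM, of which Chil3, a chitinase-like protein, made up 1662 and 24.6 CPM. The part these markers had in the ratios below was not tested.

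Over the gate cells, 6133 genes had at least 20 UMIs in both libraries together and were compared by summed CPM. Their median log2 ratio of EM over PBS was -0.13. Without a test, a gene is counted as different here when its ratio passed 2-fold, with a library at 0 set to 3 UMIs. By that rule 524 of the 6133 genes were higher in EM (8.54%) and 1166 were lower (19%). These shares are the background for the counts of list members below. The lists share some genes with each other.

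Genes of the type I interferon response were higher in EM. This response is the antiviral program that interferon alpha and beta induce. Of 27 members compared, 24 were at least 2-fold higher in EM and none lower, with a median log2 ratio of 2.08. Isg20, an RNA exonuclease, had 2 UMIs in PBS and 44 in EM (4.03 and 90.1 CPM; log2 ratio 4.48, 2.54 to 7.57). Ifit3b, a member of the IFIT family that binds viral RNA, had 0 and 32 UMIs, at least 10.8-fold higher. Irf7, the transcription factor that amplifies interferon production, stood at 38.3 CPM in PBS against 248 CPM in EM (2.69, 1.99 to 3.48). Isg15, a ubiquitin-like modifier, stood at 54.4 and 250 CPM (2.20). Ifi27l2a stood at 127 and 700 CPM (2.46). Oas3, Oasl1 and Oasl2 belong to the family of double-stranded RNA sensors. Their log2 ratios were 3.15, 2.29 and 2.29.

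The 3 members that did not pass 2-fold were parts of the signalling machinery: Stat2 (-0.15), Irf9 (0.84) and the RNA sensor Ifih1 (0.49). The receptor chain genes Ifnar1 and Ifnar2 had log2 ratios of 0.76 and 0.53. Irf7 lay between 106 and 371 CPM in the 5 EM groups and between 0 and 70.4 CPM in the 5 PBS groups. The groups are parts of 1 library each and not replicates. How many of all genes have separate ranges was not computed. Isg15 lay between 102 and 366 CPM in the EM groups and between 24.4 and 112 CPM in the PBS groups, which overlap. Without the microglia-like group the list median was 2.01 with 24 of 27 members past 2-fold. Over the 18 other settings tried it lay between 1.82 and 2.20.

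To show what the promoters of these genes share, the RefSeq promoter table of GRCm38.p6 (250 bases before to 50 bases after each start) was searched on both strands for the core of the interferon-stimulated response element, GAAANNGAAA, or TTTCNNTTTC on the other strand, with overlapping matches counted. A match was found for 10 of the 17 at least 2-fold higher members that the table holds (58.8%). Among all 20 compared members that it holds, whatever their ratio, 12 had a match (60%), so the share is that of the list. A match was found for 250 of 4937 genes compared (5.06%) and in 3.44% of the 32851 promoters searched. The 5 members of highest ratio with a match are shown, each as 80 bases 5′ to 3′ on the strand of the gene, with the matched bases in capitals.
Ifit3b (chr19:34607751-34607830): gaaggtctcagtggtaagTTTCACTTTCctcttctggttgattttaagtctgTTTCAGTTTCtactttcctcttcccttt
Oas3 (chr5:120777690-120777769): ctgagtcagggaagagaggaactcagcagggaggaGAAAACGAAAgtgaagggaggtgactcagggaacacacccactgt
Ifit1 (chr19:34640759-34640838): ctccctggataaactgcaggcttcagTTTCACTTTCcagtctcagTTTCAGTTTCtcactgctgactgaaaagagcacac
Bst2 (chr8:71537555-71537634): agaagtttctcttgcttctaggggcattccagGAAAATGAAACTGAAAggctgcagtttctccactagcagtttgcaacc
Ddx58 (chr4:40239779-40239858): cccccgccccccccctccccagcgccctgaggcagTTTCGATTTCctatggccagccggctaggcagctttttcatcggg

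Ifit3b and Ifit1, which are plus-strand genes of one cluster on chromosome 19, each held 2 matches, and Bst2 held 2 that overlap. The match of Ddx58, which encodes the RNA sensor RIG-I, lies after the start. Bst2, tetherin, which holds budding virus at the cell surface, stood at 54.4 CPM in PBS against 280 CPM in EM (2.37), Ifit1 at 20.1 and 106 CPM (2.40) and Ddx58 at 28.2 and 137 CPM (2.28). Isg20 and Irf7, which had higher ratios than some of these, held no match in this window. A match is a description of letters and not evidence of binding.

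Targets of interferon gamma, the T and NK cell cytokine, had a median of -0.66, with 1 of 21 members at least 2-fold higher and 8 lower. Without the microglia-like group 4 of 21 were lower, when 19.6% of all genes compared were, and the median was -0.60. Among cells with no lymphocyte gene UMI 4 of 19 were lower. Irf1, a transcription factor of this response, stood at 326 CPM in PBS against 90.1 CPM in EM (-1.86, -2.37 to -1.37). Cxcl9, a chemokine that draws CXCR3-bearing T cells, stood at 1440 and 704 CPM (-1.03, -1.22 to -0.84). Cd274, which encodes PD-L1, stood at 258 and 92.1 CPM (-1.48). Cxcl10, which also answers to type I interferon, stood at 159 and 495 CPM (1.64, 1.27 to 2.02), but its ratio was 0.03 when all cells were thinned to 500 UMIs before the gate. The guanylate-binding protein gene Gbp2 stood at 455 and 504 CPM (0.15).

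The opposite pattern was seen in immediate early genes, which switch on within minutes of a stimulus and also during tissue dissociation. Of 22 members 20 were at least 2-fold lower in EM and none higher, with a median of -2.50. Fos stood at 2270 CPM in PBS (1127 UMIs) and 186 CPM in EM (91 UMIs), a log2 ratio of -3.61. Egr1 stood at 1485 and 225 CPM (-2.72), and Egr2 at 576 and 10.2 CPM (-5.81, -7.45 to -4.58). Dusp1, a phosphatase that limits MAP kinase signalling, stood at 1015 and 151 CPM (-2.74). The exceptions were Jund (-0.66) and the chaperone gene Dnajb1 (0.61). At 500 UMIs Fos was seen in 50.7% of PBS and 2.8% of EM gate cells, with 75.4% and 6.8% unthinned. In T cells of the same libraries it was seen in 10.9% and 24.3%.

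EM group 5 carried most of what remained in EM. Fos lay between 22.2 and 70.1 CPM in EM groups 1 to 4 and at 1467 CPM in group 5, against 398 to 3985 CPM in the PBS groups. Without group 5 the list median was -4.04, and among cells of at least 1000 UMIs it was -1.81. Malat1, a nuclear RNA, had the same order: it stood at 3032 CPM in PBS against 585 CPM in EM, with 130 to 240 CPM in EM groups 1 to 4 and 3994 CPM in group 5. PBS group 1 held 328 CPM of it, near EM groups 1 to 4, and the other PBS groups 1279 to 5259 CPM. In T cells Malat1 stood at 1913 and 2633 CPM. The part of nuclear RNA, mitochondrial share or handling time in this difference was not tested.

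Targets of NF-kB, the central inflammatory transcription factor, were lower in EM for all 17 members compared, 12 of them at least 2-fold, with a median of -1.68. Tnfaip3, its feedback inhibitor A20, stood at 469 and 115 CPM (-2.03). Nfkbiz stood at 199 and 59.4 CPM (-1.75) and Cd83, an activation marker, at 290 and 83.9 CPM (-1.79). Cxcl2, a neutrophil chemoattractant, stood at 759 and 40.9 CPM (-4.21, -4.94 to -3.57), and all but 4 of the 20 EM UMIs lay in EM group 5. Nlrp3, the inflammasome sensor, stood at 431 and 59.4 CPM (-2.86). Tnf stood at 228 and 83.9 CPM (-1.44), and at -3.84 without EM group 5. Il10 had 0 and 1 UMI, so no ratio is given.

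**Figure D3:**
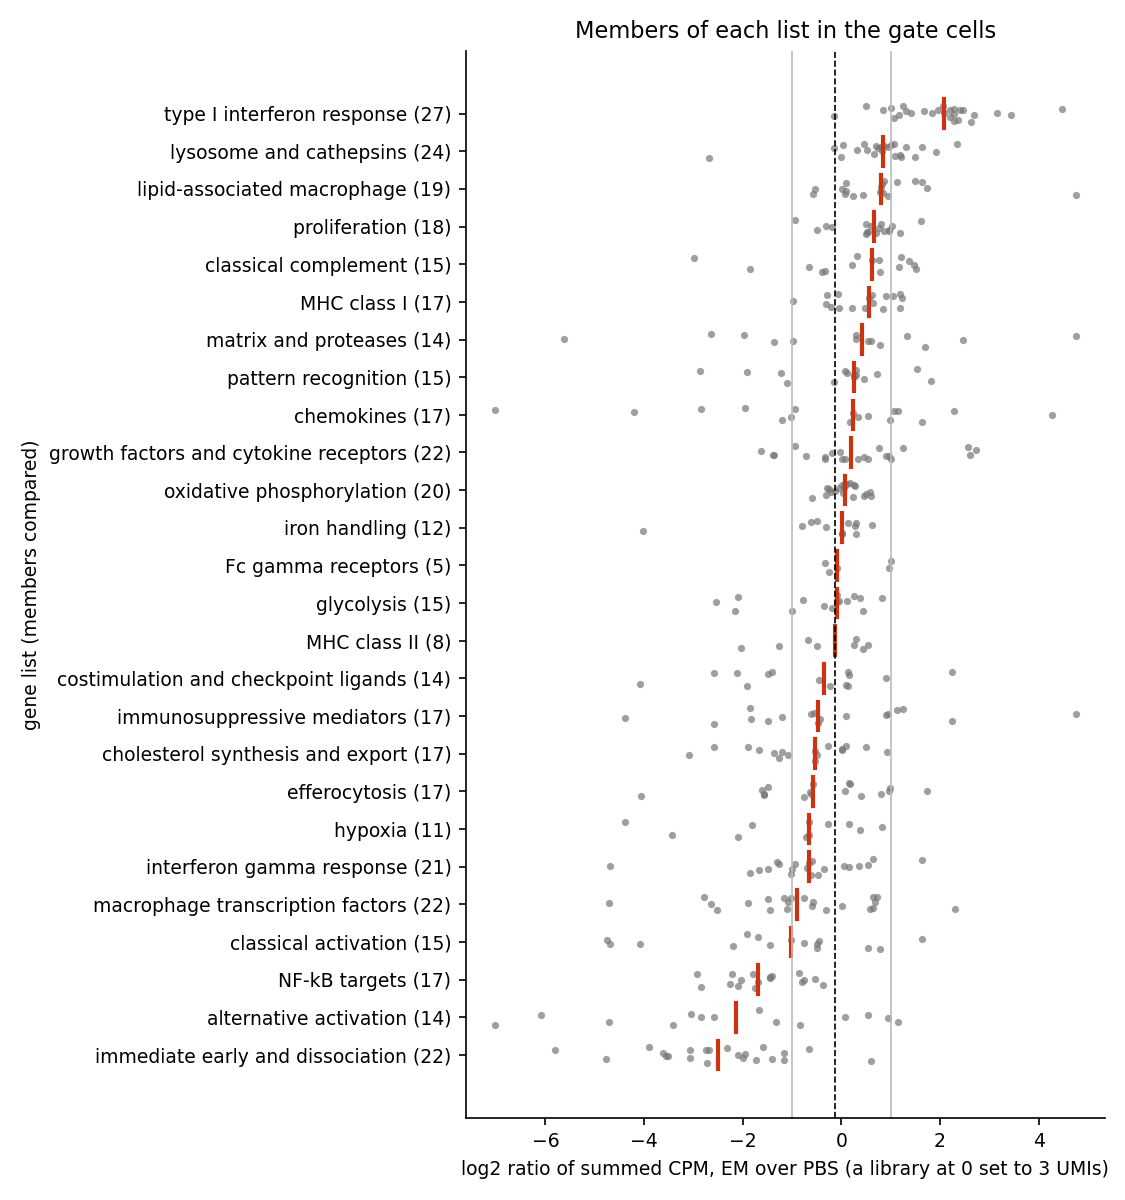
Each grey point is 1 member of a gene list with its log2 ratio of summed CPM, EM over PBS, a red bar is the list median, the dashed line is the median of all genes (-0.13) and the grey lines mark 2-fold. The type I interferon list lies almost wholly right of the 2-fold line (median 2.08) and the immediate early list almost wholly left of it (median -2.50), while the activation and chemokine lists spread to both sides.

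Genes of alternative activation, the program that interleukin 4 drives, were low in EM cells although the gate had set Arg1 and Mrc1 low in both libraries. Of 14 members 9 were at least 2-fold lower and 1 higher, with a median of -2.13, or -1.41 among cells of at most 4000 UMIs. The counts were 9 lower and 2 higher without the microglia-like group. Chil3, also called Ym1, stood at 1662 CPM in PBS (825 UMIs in 58 cells) and 24.6 CPM in EM (12 UMIs in 5 cells), a log2 ratio of -6.08 (-7.04 to -5.27). Klf4, a transcription factor of this state, stood at 749 and 28.7 CPM (-4.71). Ear2, an eosinophil-associated ribonuclease, stood at 435 and 40.9 CPM (-3.41). Ccl24, an eosinophil chemoattractant, stood at 723 and 100 CPM (-2.85). Mgl2 stood at 651 and 364 CPM (-0.84). Arg1 itself stood at 131 and 113 CPM and Mrc1 at 282 and 127 CPM, levels that the gate had limited.

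Genes of classical activation were no higher. Of 15 members 8 were at least 2-fold lower in EM and 1, Cxcl10, was higher, with a median of -1.03. Cd86, a costimulatory ligand for T cells, stood at 711 and 188 CPM (-1.92), and most of it in PBS lay in group 2. Cd80, its relative, stood at 209 and 12.3 CPM (-4.09). Ptgs2, which encodes cyclooxygenase 2, had 55 and 2 UMIs (-4.76). Nos2 had 52 UMIs in 4 PBS cells, 46 of them in 1 cell, and 2 UMIs in EM (-4.68), so its level rests on that cell.

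The classical complement genes other than the gate's showed no common direction. Of 12 such members 3 were at least 2-fold higher and 2 lower, with a median of 0.27. Over all 15 members compared, gate genes included, 2 were lower, and 4 without the microglia-like group. Cfb, factor B of the alternative pathway, stood at 139 CPM in PBS against 387 CPM in EM (1.48, 1.07 to 1.90), and in EM it was 49.6 CPM in the microglia-like group and 711 CPM in group 3. C3ar1, the receptor for the C3a fragment, stood at 264 and 594 CPM (1.17), and C5ar1, the receptor for C5a, at 54.4 and 141 CPM (1.38). C3 stood at 80.6 and 125 CPM (0.63) and C4b at 145 and 115 CPM (-0.34). C6, a part of the membrane attack complex, had 40 and 5 UMIs (-2.98), and C1ra, the protease that C1q activates, 22 and 6 (-1.85).

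Among receptors for bound antibody, Fcer1g, the shared signalling chain, stood at 2155 and 4352 CPM (1.01) and Fcgr1, the high-affinity receptor, at 92.7 and 180 CPM (0.96, 0.43 to 1.51). Fcgr2b, Fcgr3 and Fcgr4 had ratios of -0.08, -0.25 and -0.34. Genes for the uptake of dying cells, which C1q promotes, were split. Of 17 members 1 was at least 2-fold higher and 5 were lower, with a median of -0.57. Timd4, a phosphatidylserine receptor, had 51 UMIs in PBS and none in EM, at least 16.7-fold lower. Mertk, a receptor tyrosine kinase for bridged dying cells, stood at 276 and 98.3 CPM (-1.49), and its relative Axl at 371 and 723 CPM (0.96). Trem2, a lipid-sensing receptor, stood at 149 and 499 CPM (1.74, 1.36 to 2.14). Without the microglia-like group the ratio of Trem2 was 0.83.

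Lysosomal genes lay on the higher side. Of 24 members 10 were at least 2-fold higher and 1 lower, with a median of 0.84, and 22 of 24 had a ratio above 0. Ctsb, cathepsin B, stood at 2351 CPM in PBS (1167 UMIs) and 8851 CPM in EM (4324 UMIs), a log2 ratio of 1.91 (1.82 to 2.01). Ctsd, cathepsin D, stood at 381 and 1181 CPM (1.63), and Grn, progranulin, at 780 and 1924 CPM (1.30). Psap, the precursor of the saposins, stood at 7088 and 7099 CPM (0.00). Atp6v0d2, a subunit of the proton pump, stood at 183 and 28.7 CPM (-2.68). Without the microglia-like group the list median was 0.71, with 4 of 24 members past 2-fold.

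Genes of lipid-associated macrophages, a state rich in lipid handling, had a median of 0.80, with 5 of 19 members at least 2-fold higher and none lower. Without the microglia-like group the median was 0.22, with 5 higher and 2 lower. Spp1, osteopontin, had 6 UMIs in PBS and 159 in EM (12.1 and 325 CPM, 4.75), of which the microglia-like group held 843 CPM, and 1 EM cell held 31 UMIs. Without that group it had 40 UMIs and a ratio of 3.25. Lgals3, galectin 3, stood at 830 and 1801 CPM (1.12). Apoe, the lipoprotein ligand, stood at 5376 and 5762 CPM (0.10), and Gpnmb at 359 and 379 CPM (0.08).

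Cholesterol genes were lower: 8 of 17 members at least 2-fold lower and none higher, median -0.53. Insig1, a sterol-responsive regulator of synthesis, stood at 220 and 59.4 CPM (-1.89), and Srebf2, a transcription factor of synthesis genes, at 133 and 55.3 CPM (-1.27). Among cells of at most 4000 UMIs the median was -0.12, with 4 of 14 lower and 2 higher. Leaving out the microglia-like group gave 6 of 17 lower and 1 higher. Hypoxia genes behaved alike, with 4 of 11 lower and a median of -0.66. Vegfa, the vessel growth factor, had 64 UMIs in PBS and none in EM, at least 21-fold lower. Among cells of at most 4000 UMIs the hypoxia median was 0.19, and none of 7 members passed 2-fold. Iron genes had a median of 0.02, with 1 of 12 at least 2-fold lower, or 4 of 12 without the microglia-like group. Slc40a1, the iron exporter, had 33 and 2 UMIs (-4.02).

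Of the antigen presentation lists only MHC class II moved little. The MHC class I list, whose products show peptides to CD8 T cells, had a median of 0.56. Of 17 members 4 were at least 2-fold higher and none lower, and 11 had a ratio above 0. B2m, the shared light chain, stood at 5374 and 11033 CPM (1.04), and H2-K1 at 2937 and 5496 CPM (0.90). The MHC class II list had a median of -0.13 with 2 of 8 lower, or 1 of 8 without the microglia-like group. Its median lay between -0.38 and 0.18 over the settings tried and took both signs. H2-Ab1, a class II beta chain, stood at 6289 and 9144 CPM (0.54, 0.47 to 0.61), and Cd74 at 10170 and 12417 CPM (0.29). Within EM, H2-Ab1 was 1410 CPM in the microglia-like group and 16035 CPM in group 3. The PBS groups held 4581 to 6996 CPM, so EM cells lay on both sides of them. Ciita, the master regulator of class II genes, stood at 163 and 67.6 CPM (-1.27), and H2-DMb2, which helps load peptides, at 286 and 69.6 CPM (-2.04).

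Chemokines, which recruit other leukocytes, went both ways, with 5 of 17 members at least 2-fold higher, 6 lower and a median of 0.24. The counts were 5 and 4 of 16 without the microglia-like group. Ccl12, a CCR2 ligand, stood at 151 CPM in PBS against 735 CPM in EM (2.28, 1.92 to 2.66). Its neighbour Ccl8 stood at 109 and 242 CPM (1.15), but at -0.15 when cells were thinned to 500 UMIs before the gate. The 2 genes lie beside each other, Ccl12 at chr11:82101845-82103400 and Ccl8 at chr11:82115185-82116799. Cxcl13, a B cell chemoattractant, had 0 UMIs in PBS and 57 in EM, at least 19.3-fold higher, all but 6 of them in the microglia-like group. Ccl17 had 132 UMIs in 16 PBS cells, 53 of them in 1 cell, and 1 UMI in EM (-7.02, -12.34 to -4.52).

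Several genes known to dampen T cells differed, again in both directions. Lgals9, galectin 9, a TIM-3 ligand, stood at 145 and 684 CPM (2.24, 1.87 to 2.63), and at 2.11 without the microglia-like group. Tgfb1 stood at 117 and 32.8 CPM (-1.83), and Pdcd1lg2, which encodes PD-L2, at 111 and 18.4 CPM (-2.59). The list of immunosuppressive mediators had 4 of 17 members higher, 6 lower and a median of -0.47. Igf1, insulin-like growth factor 1, stood at 64.5 CPM in PBS against 426 CPM in EM (2.72, 2.18 to 3.31), and at 2.34 without the microglia-like group. It was 122 to 673 CPM in the EM groups and 0 to 149 CPM in the PBS groups, which overlap. Timp2, an inhibitor of metalloproteinases, stood at 98.7 and 544 CPM (2.46), and at 1.19 without the microglia-like group. Thbs1, thrombospondin 1, had 101 and 2 UMIs (-5.63).

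Of 22 macrophage transcription factors 11 were at least 2-fold lower and 1 higher, with a median of -0.89. Runx1 stood at 467 and 67.6 CPM (-2.79) and Cebpb at 365 and 63.5 CPM (-2.52). Spi1, which encodes the lineage factor PU.1, stood at 145 and 227 CPM (0.65). The higher one was Sall1, with 6 and 29 UMIs (2.30), and it was -0.07 without the microglia-like group. Cell division genes had a median of 0.66, with 3 of 18 at least 2-fold higher, none lower and 14 above 0. The median was 1.59 when cells were thinned to 500 UMIs before the gate and 0.40 when thinned to 1000 after it. Stmn1 stood at 205 and 420 CPM (1.03). Mki67, a marker of dividing cells, went the other way at 167 and 88 CPM (-0.93), and 1 PBS cell held 22 of its 83 UMIs there.

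Among all genes outside the gate and the marker lists, the highest ratios after these filters belonged to Npnt, Cst7 and Spp1. Npnt, nephronectin, had 1 and 40 UMIs (5.35, 2.78 to 10.68), and Cst7, cystatin F, an inhibitor of lysosomal proteases, had 4 and 145 UMIs (5.20, 3.82 to 7.10). Both lay mostly in the microglia-like group, and without it they had 3 and 13 EM UMIs. Cd72, an inhibitory receptor, did not: it stood at 26.2 and 483 CPM (4.21, 3.40 to 5.14), and at 3.98 without that group. It lay between 183 and 652 CPM in the EM groups and between 0 and 46.9 CPM in the PBS groups. Ms4a4c, an MS4A family gene, stood at 40.3 and 381 CPM (3.24, and 3.68 without that group). Ass1, argininosuccinate synthase, had 9 and 70 UMIs (2.98).

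The lowest ratios after Ccl17 belonged to Mucl1 and Plk2. Mucl1 had 281 UMIs in PBS, all in 5 cells and 106 in 1 cell, and none in EM, at least 92.2-fold lower. Plk2, a stress-responsive kinase, had 79 and 1 UMIs (-6.28). Il1r2, a decoy receptor for interleukin 1, had 283 UMIs in 50 PBS cells and 8 UMIs in EM (-5.12, -6.35 to -4.12). Klf9, a transcription factor, had 103 UMIs in 46 PBS cells and 2 in EM (-5.66). The levels of Il1r2 and Klf9 thus rest on many cells, those of Mucl1 on few.

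**Figure D4:**
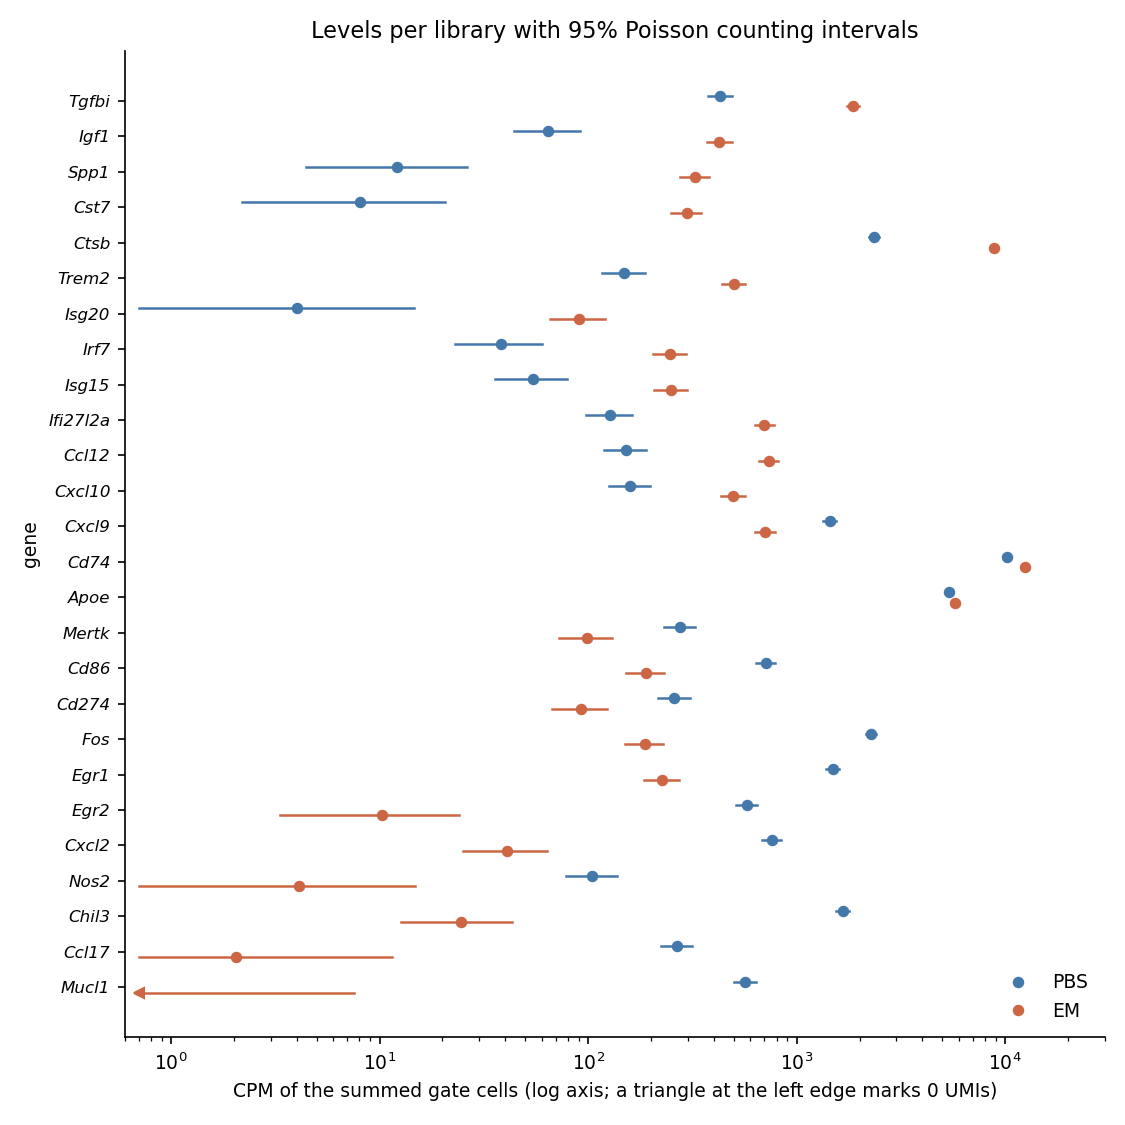
Points are CPM of the summed gate cells on a log axis, PBS in blue and EM in orange, with 95% Poisson counting intervals that are clipped at the left edge, and a triangle marks 0 UMIs. Cst7, Spp1, Isg20 and Irf7 are higher in EM, Fos, Egr2, Chil3 and Ccl17 are higher in PBS, and Apoe and Cd74 lie close together.

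Genes of the sex chromosomes separated the libraries. Ddx3y, a Y-linked helicase, stood at 228 CPM in PBS against 8.19 CPM in EM, and Xist, the RNA that silences an X chromosome, at 6.04 and 104 CPM. T cells showed the same order, with 175 and 4.38 CPM of Ddx3y and 3.72 and 393 CPM of Xist. The labels give no sex, and the sex of the animals cannot be told apart from the treatment here.

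The ratios of the gate cells were set beside those of 3 other sets of cells from the same 2 libraries, which share everything that differs between the libraries. The first was C1q cells over the microglial limit only (76 PBS and 198 EM cells), the next C1q cells over the Arg1 and Mrc1 limit only (139 and 21 cells) and the last T cells with at least 3 Cd3 UMIs (3850 and 4280 cells). The type I interferon median was 2.08 in the gate, 1.11 over the microglial limit, 1.14 over the Arg1 limit and 2.73 in T cells. The immediate early median was -2.50, -2.52 and -2.02 in the 3 C1q sets, and 0.68 in T cells. The NF-kB median was -1.68, -1.94, -0.92 and 0.25 in the same order. Over the Arg1 limit, 12 of 23 immediate early and 6 of 17 NF-kB members were at 0 in EM and entered at 3 of only 31022 UMIs. Without those members the medians there were -3.23 and -1.36, and the median of all genes compared was 0.39. The MHC class II median was -0.13 in the gate and -1.34 over the microglial limit, where 8 of 10 members were at least 2-fold lower. Only 21 EM cells lay over the Arg1 limit. The differences between these sets were not tested, since each holds 1 library per treatment.

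**Figure D5:**
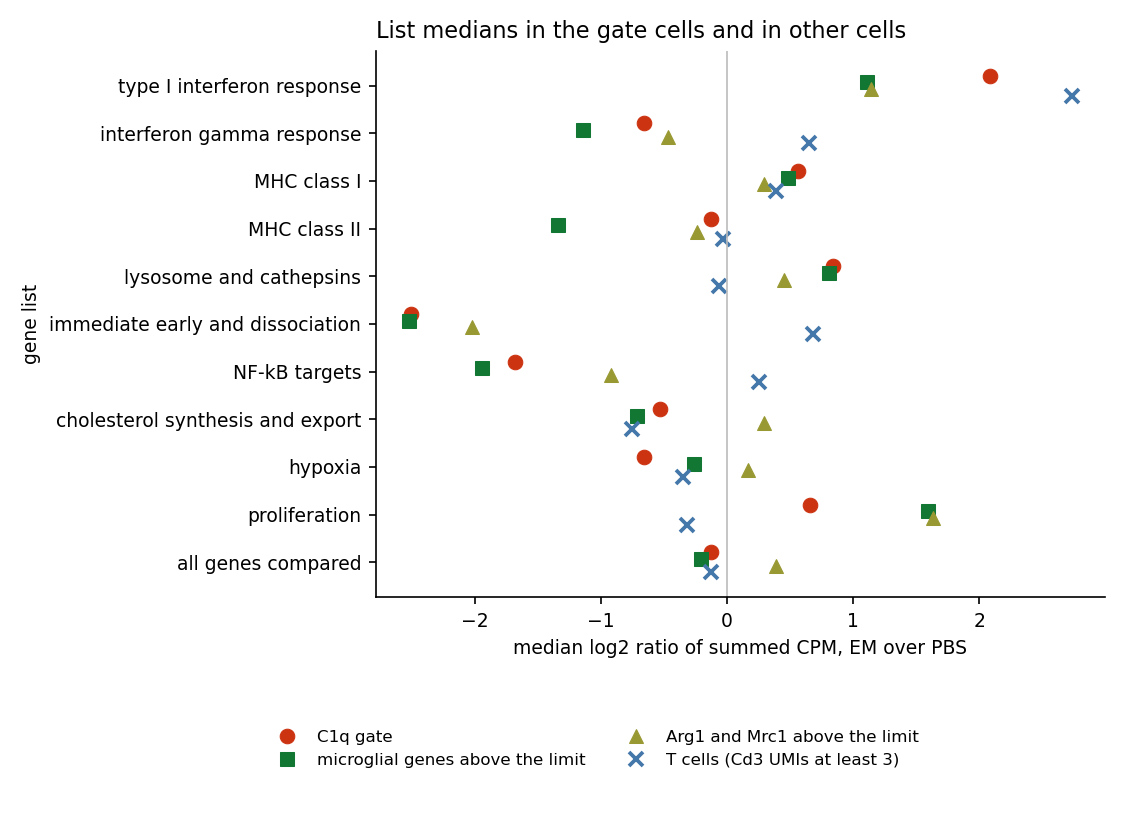
Points are list medians of the log2 ratio of summed CPM, EM over PBS, in the gate cells (red circles), in C1q cells over the microglial limit (green squares) or over the Arg1 and Mrc1 limit (olive triangles) and in T cells (blue crosses). All 4 sets lie right of 0 for the type I interferon list (1.11 to 2.73), and for immediate early genes the 3 C1q sets lie left of 0 and T cells right of it (0.68).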

How the data were processed

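Single-cell RNA was measured in sorted immune cells of mouse gliomas, 1 PBS and 1 EM library. The values the authors deposited are UMI counts, whole numbers with no normalization, per the file headers. Per the submitters' processing notes CASAVA 1.8, STARsolo and mm10 were used. For annotation and cell calling, the method is not given in the sources used here. Of 8333 PBS and 8039 EM barcodes (45043934 and 19385631 UMIs), those with at least 500 UMIs, at least 200 genes and at most 20% mitochondrial UMIs were kept. Scrublet (scanpy 1.11.5) called 0 PBS and 3 EM cells (0.0377%) as doublets, a share at which the calls cannot have worked. Doublets therefore remain, and leaving out the 6% of highest scores is an alternative.

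UMIs of the gate cells were summed per library and divided into CPM. Log2 ratios carry exact conditional binomial 95% intervals, shares exact Clopper-Pearson intervals, and a count of 0 was set to 3 UMIs. With 1 library per treatment there was no test. UMIs counted once per molecule still share cells and animals. Genes with under 20 UMIs over both libraries were left out. Cells were clustered per library (2000 variable genes, 20 principal components, 15 neighbours, leidenalg 0.10.2 at resolution 0.8). The ratio and interval code was tested on simulated counts.

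The members and gene lists were chosen with earlier results of these data known. Named genes are the 15 highest and 15 lowest ratios of at least 50 CPM and 30 UMIs whose interval excludes equality, the 2 highest and 2 lowest members per list, the 15 most abundant genes and a fixed list of markers; other list members, group markers and leading genes were picked after their values were seen. Some genes these rules name are not reported here. Of 18 alternatives, 4 were added after seeing the data: cells without the EM microglia-like group, without EM group 5, of at least 50 C1q and Ms4a7 UMIs per 10000, or of at most 4000 UMIs. Gene positions come from GENCODE on GRCm38, the assembly of mm10.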

Additional observations from a re-analysis of the deposited data

How the results depend on the processing

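The share ratio of 3.63 was 1.7 among cells of at least 1000 UMIs, whether or not they were then thinned to 1000, and 0.668 after thinning to 500 UMIs before the gate. It was 6.22 with Arg1 and Mrc1 at 0, 2.32 with at most 1 UMI of 9 microglial genes, 2.45 without the microglia-like group, 5.24 with at least 50 C1q and Ms4a7 UMIs per 10000, and 2.65 at 4000 UMIs or fewer. The number of genes at least 2-fold higher (524) was 307 after thinning to 1000 UMIs, 257 with at least 50 UMIs per gene and 1132 with at least 5. The number lower (1166) was 326, 577 and 2088 in these settings, 736 with Arg1 and Mrc1 at 0 and 626 with at most 1 microglial UMI; thinning and the UMI minimum change the number of genes compared. The immediate early median was -1.81 at 1000 UMIs or more, -1.88 thinned to 1000, -3.70 thinned to 500, -4.04 without EM group 5 and -3.11 with at least 50 per 10000. The lipid-associated median was 0.22 without the microglia-like group. The MHC class II median was -0.38 with Arg1 and Mrc1 at 0, 0.10 with equal weight per cell, 0.18 without the microglia-like group and 0.09 at 4000 UMIs or fewer. The type I interferon median stayed between 1.82 and 2.20. Centring shifted all ratios by 0.12. Of 2576 values of 145 named genes under alternatives, 3 turned round: Ccl8 (-0.15, thinned to 500) and Sall1 (-0.79 thinned to 1000, -0.07 without the microglia-like group). Only genes with a main ratio past 2-fold and an interval that excluded equality could count as turned round. A further 495 values lay outside the counting interval of the main ratio, so many ratios changed in size with the processing. The causes were not tested. No paired analysis was possible because each treatment has 1 library, and leaving out a library leaves none. Low UMIs per EM cell limit what single cells can show.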

Other observations

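Mitochondrial genes made up less of the EM gate cells. mt-Co1, a subunit of cytochrome oxidase, stood at 21773 CPM in PBS against 13492 CPM in EM (-0.69), mt-Co2 at 12875 and 6935 CPM (-0.89) and mt-Nd1, a subunit of complex I, at 7956 and 4872 CPM (-0.71). The nuclear-encoded oxidative phosphorylation list had a median of 0.07, with none of 20 members past 2-fold in either direction. Glycolysis genes had a median of -0.09, with 4 of 15 members at least 2-fold lower. Pfkp, a phosphofructokinase, stood at 250 and 43 CPM (-2.54), Slc2a1, the glucose transporter GLUT1, at 149 and 34.8 CPM (-2.10), and Ldha, lactate dehydrogenase, at 248 and 438 CPM (0.82).

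Growth factor genes included Pdgfa (6 and 35 UMIs, 2.57), while the cytokine receptor gene Il6ra stood at 183 and 59.4 CPM (-1.63) and Osm, oncostatin M, at 123 and 47.1 CPM (-1.38). Of 15 pattern recognition genes 2 were at least 2-fold higher and 4 lower, or 3 and 3 of 14 without the microglia-like group. Tlr1, a receptor for bacterial lipopeptides, had 11 and 38 UMIs (1.81), and Cd14, the coreceptor for lipopolysaccharide, stood at 238 and 63.5 CPM (-1.91). Plaur, the urokinase receptor, stood at 550 and 88 CPM (-2.64), and Mmp12, macrophage elastase, at 858 and 217 CPM (-1.98).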
